A study of Mus musculus with 144 samples.

Results

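The genes described here are 55 stress response genes whose diabetic effect had opposite signs in 2 cell types of the mouse glomerulus, the endothelial cells (gECs) and the mesangial cells. The diabetic effect is the log2 ratio of BTBR ob/ob over BTBR WT, averaged over 6, 12 and 18 weeks of age with equal weight, and the difference is the gEC effect minus the mesangial effect. They were taken from 203 stress genes in 9 lists (heat shock, unfolded protein response of the endoplasmic reticulum, integrated stress response, NRF2 targets, antioxidant enzymes, immediate early genes, p53 targets, hypoxia and NF-kB). Of the 203 genes, 168 had a mean of 5 TPM or more in each cell type, and the 55 are those of the 168 with opposite signs. TPM is an abundance scaled by transcript length and to a common sum per library, and CPM is a count scaled to the total of its library. The whole table held 46517 gene entries, of which 19570 were tested in these cells and 9448 met the same minimum of 5 TPM.

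The comparison used 92 of the 144 libraries of the series, 46 from gECs and 46 from mesangial cells. Each cell type had 8 WT and 8 ob/ob libraries at 6 weeks, 8 and 8 at 12 weeks and 7 and 7 at 18 weeks, with females and males in each group. BTBR ob/ob mice are homozygous for the ob allele of Lep, the gene of the satiety hormone leptin, and become obese, insulin resistant and hyperglycaemic, and BTBR WT mice carry 2 normal alleles. Mice of both genotypes also carried the reporter Gt(ROSA)26Sor tdTomato/EGFP with a Cre recombinase active in podocytes, which turns these cells green. Glomeruli were digested with enzymes and the cells sorted by fluorescence, gECs as cells with PODXL but without EGFP or CD73, and mesangial cells as cells with CD73 but without EGFP or PODXL. Leptin deficiency, obesity and hyperglycaemia come together in this model and cannot be told apart.

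The labels of the cell types matched their markers. Summed over 12 gEC markers, such as Kdr and Pecam1, WT gECs had a median of 23110 CPM and WT mesangial cells 2634 CPM, and summed over 10 mesangial markers, such as Itga8 and Pdgfrb, WT mesangial cells had 18480 CPM and WT gECs 157 CPM. Depth was 15.4 to 35.0 M counts (M for mega) in gECs and 15.8 to 38.1 M in mesangial cells. The 18-week libraries were shallower, with a median depth of 17.5 M beside 28.2 M for the 6-week and 29.1 M for the 12-week libraries. Age and depth therefore cannot be fully told apart. Mitochondrial genes took a group median of 7.03% to 8.98% of the counts. Xist and Ddx3y went against the labelled sex in 0 libraries, and 4 libraries lay farthest from their group, WT gECs at 12 weeks (female 2 and male 1), WT mesangial cells at 12 weeks (male 1) and ob/ob gECs at 6 weeks (female 3). Without these 4 libraries, 67 of the 168 genes passed the test of the difference, against 64 with them.

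Stress responses are transcriptional programmes, each with its own regulators. HSF1 switches on chaperones when proteins misfold in the cytosol, the sensors ATF6, IRE1 (Ern1) and PERK do so for the endoplasmic reticulum, and ATF4 carries the integrated stress response. NRF2, p53, the hypoxia-inducible factors and NF-kB answer oxidants, DNA damage, low oxygen and inflammatory signals, while immediate early genes are transcribed within minutes of growth factor, mechanical or other stimulation, before any new protein is made. In the glomerulus the fenestrated endothelium faces the blood, and mesangial cells hold the capillary loops together from the inside.

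The promoters of 6 of the 55 genes are shown. These genes belong to the immediate early and NF-kB lists, and in each of the 6 the gEC effect lay above the mesangial effect. Each line gives the 150 bases before the transcription start (RefSeq, GRCm38.p6), 5′ to 3′ on the strand of the gene. In the first 4 lines the capitals mark the cyclic AMP response element TGACGTCA or its core TGACG on either strand, and in Cxcl1 and Il6 they mark only the NF-kB site. Nr4a1 lies at chr15:101266696-101266845 (plus strand), Fos at chr12:85473740-85473889 (plus), Nr4a2 at chr2:57124004-57124153 (minus), Dusp1 at chr17:26508473-26508622 (minus), Cxcl1 at chr5:90891095-90891244 (plus) and Il6 at chr5:30012964-30013113 (plus).
Nr4a1: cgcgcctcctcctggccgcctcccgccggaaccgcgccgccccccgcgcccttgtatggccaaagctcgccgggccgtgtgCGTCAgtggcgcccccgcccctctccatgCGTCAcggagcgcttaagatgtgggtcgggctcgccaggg
Fos: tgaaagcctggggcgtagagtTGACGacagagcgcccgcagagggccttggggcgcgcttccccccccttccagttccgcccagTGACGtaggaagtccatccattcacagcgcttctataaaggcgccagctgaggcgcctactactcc
Nr4a2: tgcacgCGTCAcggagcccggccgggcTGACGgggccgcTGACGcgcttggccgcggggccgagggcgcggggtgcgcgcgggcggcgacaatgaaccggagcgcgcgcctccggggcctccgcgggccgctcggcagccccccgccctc
Dusp1: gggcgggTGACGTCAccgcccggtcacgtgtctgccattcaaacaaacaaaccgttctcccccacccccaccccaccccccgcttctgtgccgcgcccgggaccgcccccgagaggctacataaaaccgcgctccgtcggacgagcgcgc
Cxcl1: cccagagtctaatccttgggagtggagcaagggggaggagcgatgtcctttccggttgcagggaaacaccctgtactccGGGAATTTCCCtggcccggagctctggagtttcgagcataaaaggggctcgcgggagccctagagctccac
Il6: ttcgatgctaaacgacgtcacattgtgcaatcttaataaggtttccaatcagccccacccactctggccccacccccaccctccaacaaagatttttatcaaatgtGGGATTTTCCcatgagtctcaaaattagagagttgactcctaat

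Windows from 250 bases before to 50 after a start were in hand for 139 of the 168 genes and for 27025 mouse genes in all, and a motif was counted for a gene when any of its windows held it on either strand. The core was present for 9 of the 14 immediate early genes of opposite sign (64.3%) and for 23.0% of all genes with a window. The full element, which contains the core on both strands, was present for 3 of the 14 (Btg2, Dusp1 and Maff) and for 2.03% of all genes. The NF-kB site was present for Cxcl1, Il6 and Nfkbie, the 3 of the 5 NF-kB genes of opposite sign with a window, for 10 of 14 genes of the NF-kB list and for 9.55% of all genes. These matches describe the letters of the windows only.

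Opposite signs were found for 55 of 168 stress genes (32.7%), beside 35.9% of the 9448 well expressed genes of any kind. In 36 of the 55 the ob/ob effect was above 0 in gECs and below 0 in mesangial cells, and in 19 it was the reverse. Of the 3392 well expressed genes of any kind with opposite signs, 2248 were of the first kind and 1144 of the second. As shares of all well expressed genes, these were 23.8% and 12.1% of the 9448, beside 36 and 19 of the 168 stress genes. The split was different with the deposited TPM in limma on log2(TPM + 1), which changed unit, scaling and model together. There 62 genes had opposite signs, 30 with the gEC effect above 0 and 32 below, and 42 of them were among the 55. Without the 12-week libraries, 52 genes had opposite signs, and 35 of them were among the 55.

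The 2 groups of genes differed in the size of their effects. Over the 36 genes the median effect was 0.14 on the log2 scale in gECs and -0.31 in mesangial cells, with a median difference of 0.48 and a range from 0.02 to 2.13. Over the 19 genes the medians were -0.04 in gECs and 0.17 in mesangial cells, with a median difference of -0.18 and a range from -1.29 to -0.08. Many of the signs rested on an effect close to 0, since the smaller of the 2 effects was under 0.1 in size for 18 of the 36 and for 14 of the 19 genes. It was 0.25 or more for 7 of the 36 (Vcam1, Il6, Cxcl1, Dusp6, Slc3a2, Fosl2 and Ddit4) and for 2 of the 19 (Cryab and Ndrg1). Ddit4 was named here after its values were seen.

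**Figure D1:**
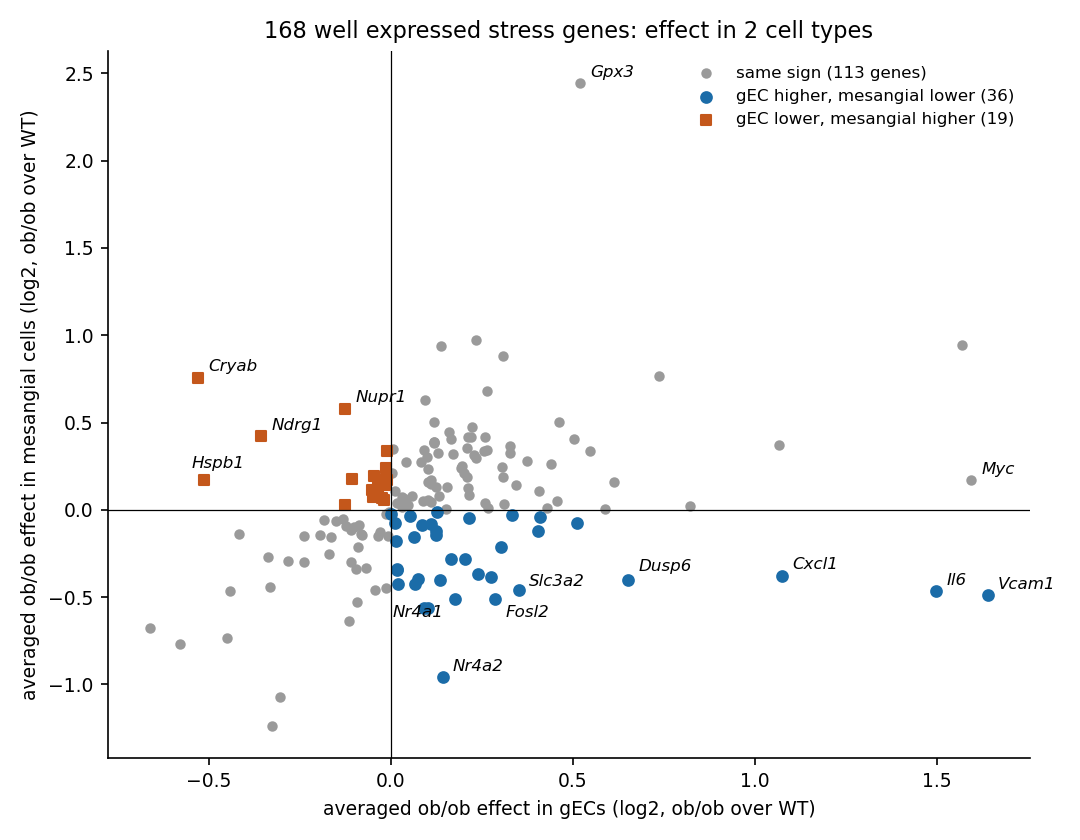
Averaged ob/ob effect in gECs (x axis, log2 of ob/ob over WT) against that in mesangial cells (y axis, log2) for the 168 well expressed stress genes. The 36 circles at the lower right are genes higher in gECs and lower in mesangial cells, the 19 squares at the upper left are the reverse, and Vcam1, Il6 and Cxcl1 lie farthest to the lower right.

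The rule itself set these boundaries. Zmat3 was the member with the lowest mean, 7.00 TPM in mesangial cells, and Bbc3, with opposite signs but 3.81 TPM in mesangial cells, fell outside, as did 13 such genes in all. Nfkbie was the member closest to a sign change (0.00 in gECs and -0.02 in mesangial cells), and Nfkb2 was the closest of the same-sign genes (0.00 and 0.21). The signs and sizes of the effects chose the 55 genes, so their averaged effects are given as descriptions with standard errors and without tests. Leaving out each of the 92 libraries in turn, with the dispersions kept, turned 1 of the 2 signs in at least 1 case for 13 of the 55 genes and for 17 of the 113 well expressed genes of the same sign. Tests are given over the 168 genes, which were chosen by their lists and their mean TPM with earlier results of these data known, and for comparisons that the rule did not use. Of the 168 genes 1, Myc, reached 5 TPM in gECs only through ob/ob (mean 3.00 TPM in WT and 8.47 TPM in ob/ob).

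The difference between gECs and mesangial cells passed the test (adjusted p under 0.05, edgeR quasi-likelihood test with Benjamini-Hochberg adjustment over all 19570 genes) for 64 of the 168 stress genes (38.1%), 42 with the gEC effect above the mesangial effect (41 without Myc) and 22 below. Among all 9448 well expressed genes the share was 25.1%, with 15.1% above and 10.0% below, and among all tested genes it was 17.8%. In gECs, 55 of the 168 genes rose (54 without Myc) and 13 fell in ob/ob, against 19.8% and 8.10% of the well expressed genes. In mesangial cells, 53 rose and 43 fell, against 22.7% and 20.4%. With the deposited TPM in limma, the gEC counts were 32 and 25, the mesangial counts 42 and 50, and the difference passed for 38 genes above and 28 below. Without the 18-week libraries, the difference passed for 33 of the 168 genes, 18 above and 15 below. The median effect of the 168 genes was 0.10 in gECs and 0.04 in mesangial cells, beside 0.04 and 0.00 over the 9448 genes.

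**Figure D2:**
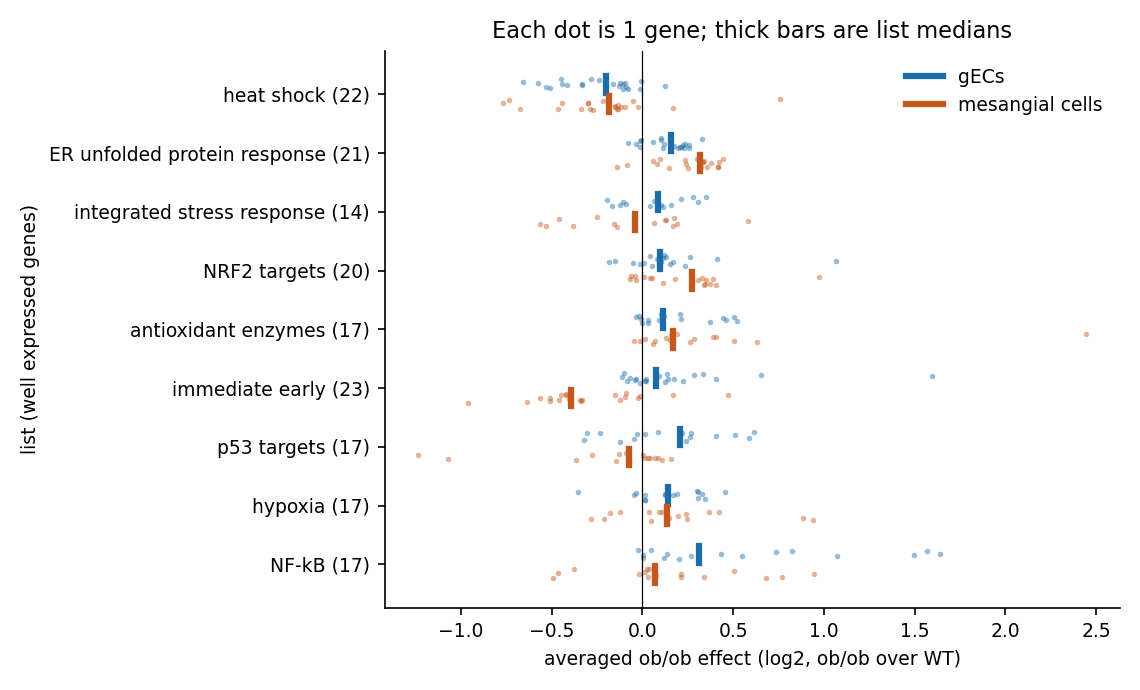
Averaged ob/ob effect (x axis, log2) of every well expressed stress gene in its list (y axis, number of genes in brackets), with 1 dot per gene and thick bars at the list medians, for gECs and mesangial cells. The immediate early list has its median at 0.07 in gECs and -0.39 in mesangial cells, and the heat shock list lies below 0 in both.

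The largest differences among the 55 genes belonged to the NF-kB list, to an adhesion molecule and 2 secreted inflammatory signals. Vcam1 (chr3:116109949-116129688, minus strand), the adhesion molecule that holds leukocytes on activated endothelium, had an effect of 1.64 ± 0.14 (SE) in gECs and -0.49 ± 0.12 in mesangial cells, a difference of 2.13 ± 0.18. In gECs it ran from 3.55 to 11.0 CPM with a median of 5.95 in the 23 WT libraries and from 8.14 to 47.0 CPM with a median of 20.1 in the 23 ob/ob libraries. All 23 ob/ob gEC libraries lay above the WT median of their age, and at 2 of the 3 ages the genotypes did not overlap. The WT gEC level was near the minimum of 5 TPM, with means of 6.64, 4.54 and 4.35 TPM at 6, 12 and 18 weeks. Mesangial cells held far more Vcam1, 164 to 474 CPM (median 277) in WT and 85.2 to 479 CPM (median 197) in ob/ob. Only 3 of 23 ob/ob mesangial libraries were above the WT median of their age, although the ranges overlapped at every age.

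Il6, an inflammatory cytokine, had effects of 1.50 ± 0.23 in gECs and -0.47 ± 0.21 in mesangial cells, a difference of 1.97 ± 0.31. It was low and variable in gECs, with 1.20 to 22.2 CPM (median 4.38) in WT and 2.57 to 88.6 CPM (median 8.55) in ob/ob. In mesangial cells it ran from 8.01 to 152 CPM (median 36.1) in WT and from 1.62 to 103 CPM (median 22.5) in ob/ob. The genotypes overlapped at every age in both cell types, with 21 ob/ob gEC libraries and 7 ob/ob mesangial libraries above the WT median of their age. At 12 weeks the mesangial medians of Il6 were close, 65.15 CPM in WT and 67.45 CPM in ob/ob, beside 8.65 and 39.4 CPM in gECs. Cxcl1, a chemokine that attracts neutrophils, had effects of 1.07 ± 0.20 in gECs and -0.38 ± 0.19 in mesangial cells, a difference of 1.45 ± 0.27. Its gEC levels were 4.35 to 30.4 CPM (median 11.8) in WT and 6.27 to 148 CPM (median 17.3) in ob/ob, and its mesangial levels 154 to 882 CPM (median 304) and 76.3 to 1308 CPM (median 198). Again the ranges overlapped at every age, with 17 and 6 of 23 ob/ob libraries higher than the median WT library of their age. At 12 weeks, however, Cxcl1 had a higher median in ob/ob in both cell types. The WT and ob/ob medians at that age were 17.8 and 66.0 CPM in gECs and 423 and 521 CPM in mesangial cells. In gECs they were 12.2 and 13.0 CPM at 6 weeks and 7.62 and 11.5 CPM at 18 weeks.

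The NF-kB list was not divided between the cell types as a whole. Of its 17 well expressed genes, 11 rose and 0 fell in gECs (0 also at an unadjusted edgeR p under 0.05, and 0 with DESeq2; median effect 0.31), and 5 rose and 1 fell in mesangial cells (median 0.07). The gEC count was 5 without the 12-week libraries. The difference passed for 4 genes above 0 and 2 below (35.3%, beside 25.1% of the well expressed genes). Among the well expressed genes of any kind, 19.8% rose and 8.10% fell in gECs, and 22.7% rose and 20.4% fell in mesangial cells. Tnfaip3, which encodes the A20 protein that shuts NF-kB signalling down, had effects of 0.82 ± 0.19 and 0.02 ± 0.19 of the same sign, and their difference of 0.80 ± 0.27 passed the test (edgeR adjusted p = 0.0281) but missed it with the deposited TPM in limma (adjusted p = 0.0737) and without any one age. With 1 library left out at a time, its mesangial effect ran from -0.07 to 0.10 and changed sign in 11 cases. Rela, the NF-kB subunit that activates transcription, had a difference of 0.06 ± 0.06 (edgeR adjusted p = 0.643).

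Markers of other cells moved with these genes in gECs. The 4 markers of endothelium outside the glomerulus (Plvap, Vwf, Selp and Fbln2) all rose in ob/ob gECs, and their sum went from a median of 66.6 CPM in WT (44.1 to 189) to 264 CPM in ob/ob (130 to 524). In mesangial cells the same sum went from 316 CPM (226 to 544) to 234 CPM (145 to 413), with 0 markers called higher and 1 lower. The sum of these 4 genes was thus not particular to endothelium. The sum of the 10 mesangial markers went from 157 CPM (119 to 284) to 205 CPM (151 to 359) in gECs, with 5 markers higher and 3 lower, and the defining marker Itga8 stood at a median of 8.21 CPM in gECs beside 5663 CPM in mesangial cells. In mesangial cells the sum of the 12 gEC markers went from 2634 CPM (2122 to 3171) to 3556 CPM (3035 to 4626), with 5 of 12 called higher. Immune markers were near 0 in both cell types, with sums of 4.94 and 3.04 CPM in WT and ob/ob gECs and 2.39 and 2.51 CPM in mesangial cells. In bulk samples, more cells of one kind and more RNA per cell cannot be told apart, and the part of these markers in the result was not tested.

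**Figure D3:**
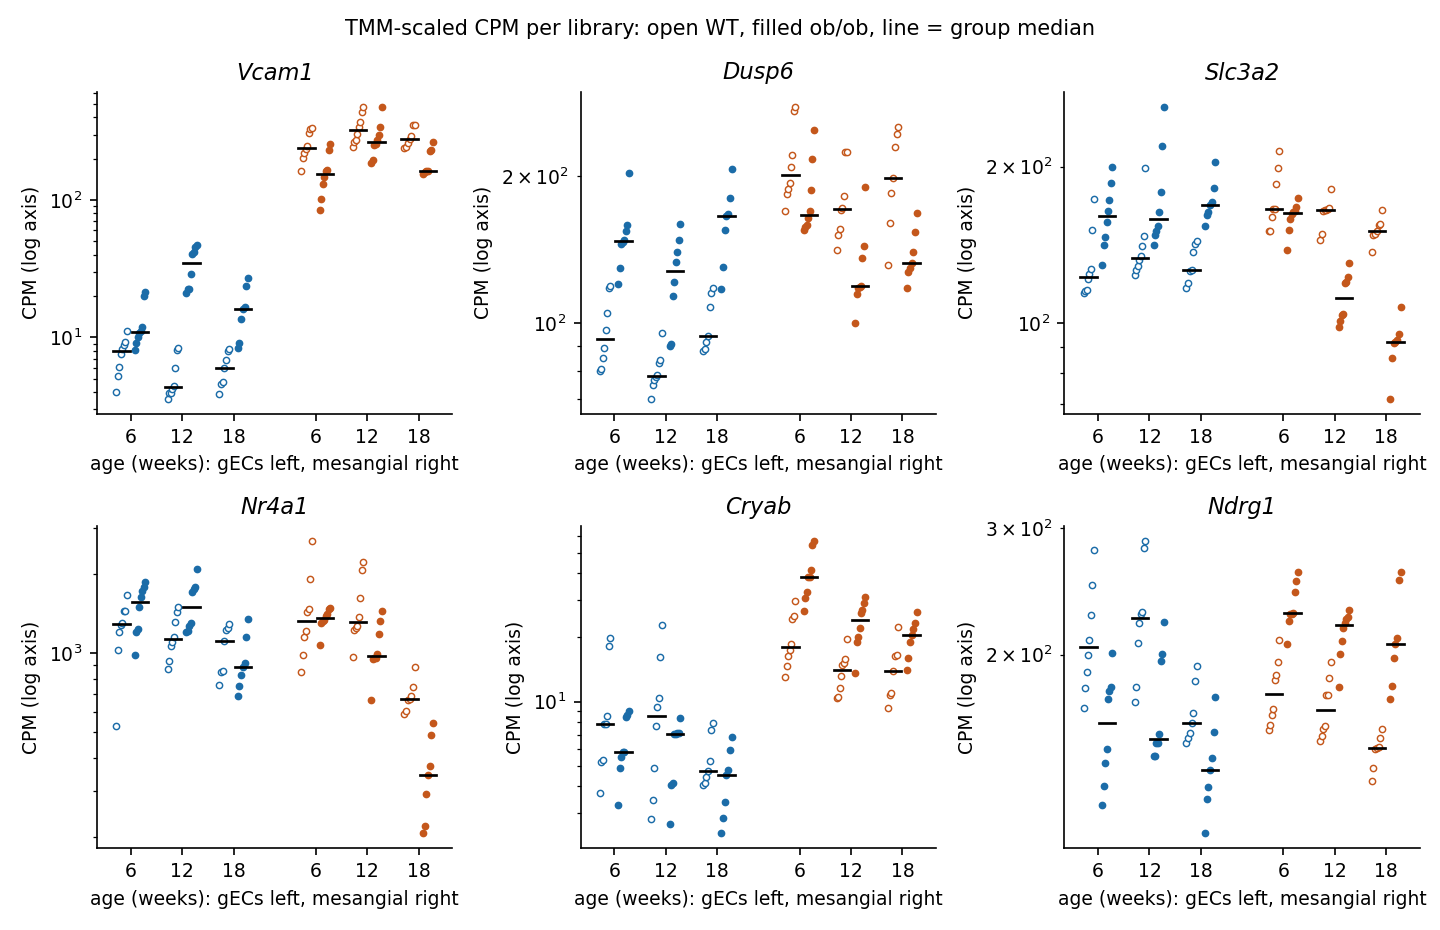
TMM-scaled CPM (y axis, log scale) of Vcam1, Dusp6, Slc3a2, Nr4a1, Cryab and Ndrg1 in every gEC (left) and mesangial (right) library at 6, 12 and 18 weeks (x axis). Open points are WT libraries, filled points ob/ob libraries and lines group medians, and for Vcam1, Dusp6 and Slc3a2 all 23 ob/ob gEC libraries lie above the WT median of their age.

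Immediate early genes made up the largest group, 14 of the 55, and in all 14 the effect was above 0 in gECs and below 0 in mesangial cells. These 14 were 60.9% of the 23 well expressed genes of the list. Of all well expressed genes, 35.9% had opposite signs, with 23.8% in this direction. The difference passed the test for 16 of the 23 well expressed genes of the list, all with the gEC effect above the mesangial effect (69.6%, against 15.1% of the well expressed genes), and the list's median difference was 0.44. Myc, which met the minimum in gECs only through ob/ob, was among these 16 and among the genes that rose in gECs. Most of the genes that passed within 1 cell type did so in mesangial cells. There, 15 genes fell and 1 rose, with a median effect of -0.39, whereas 4 rose and 0 fell in gECs (0 also at an unadjusted edgeR p under 0.05, and 0 with DESeq2), with a median of 0.07 that turned to -0.02 with the deposited TPM and to -0.03 without the 12-week libraries. Among the well expressed genes of any kind, 22.7% rose and 20.4% fell in mesangial cells, and 19.8% rose and 8.10% fell in gECs. Without the 18-week libraries, the difference passed for 6 genes in place of 16, and 5 fell in mesangial cells in place of 15. The cells had been digested out of the glomeruli and sorted before lysis, and the part of this handling in these levels was not tested.

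Dusp6 (chr10:99263231-99267489, plus strand), a phosphatase that switches off the MAP kinase ERK and is itself switched on by it, is described first. Its effects were 0.65 ± 0.07 in gECs and -0.40 ± 0.07 in mesangial cells, a difference of 1.05 ± 0.10. The gEC libraries held 70.1 to 119 CPM (median 88.4) in WT and 89.9 to 207 CPM (median 146) in ob/ob. The mesangial libraries held 131 to 277 CPM (median 188) in WT and 100.2 to 248 CPM (median 144) in ob/ob. All 23 ob/ob gEC libraries were above the WT median of their age, beside 3 of 23 in mesangial cells, and in gECs the genotypes did not overlap at 1 of the 3 ages.

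The nuclear receptors of the NR4A family are transcription factors without a known activating hormone that answer cyclic AMP and calcium signals. Nr4a2 had effects of 0.14 ± 0.18 in gECs and -0.96 ± 0.19 in mesangial cells, a difference of 1.10 ± 0.26. Its levels were 30.8 to 158 CPM (median 74.0) in WT gECs and 36.1 to 211 CPM (median 80.7) in ob/ob gECs. In mesangial cells they were 20.0 to 268 CPM (median 47.5) in WT and 4.14 to 103 CPM (median 40.7) in ob/ob. Thus 13 of 23 ob/ob gEC libraries and 4 of 23 ob/ob mesangial libraries were above the WT median of their age, with overlap throughout. Nr4a1 was much more abundant, and its effects were 0.18 ± 0.10 in gECs and -0.51 ± 0.11 in mesangial cells, a difference of 0.69 ± 0.15. Its CPM ranged from 530.5 to 1673 (median 1201) in WT gECs, from 685 to 2088 (median 1269) in ob/ob gECs, from 588 to 2679 (median 1211) in WT mesangial cells and from 207 to 1493 (median 996) in ob/ob mesangial cells. At 1 of the 3 ages the ob/ob mesangial libraries did not overlap with WT.

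Fosl2, a partner of JUN in the AP-1 transcription factor, had effects of 0.29 ± 0.14 in gECs and -0.51 ± 0.14 in mesangial cells, a difference of 0.80 ± 0.20. Its CPM ranged from 236 to 999 (median 501) in WT gECs and from 330.3 to 1723 (median 664) in ob/ob gECs, and from 127 to 937 (median 238) and 55.4 to 552 (median 212) in mesangial cells. The genotypes overlapped at every age, with 18 of 23 ob/ob gEC libraries and 7 of 23 ob/ob mesangial libraries higher than the median WT library of their age. The other 10 immediate early genes of opposite sign had differences from 0.14 to 0.65. Myc, a growth-promoting transcription factor whose effects had the same sign, had the largest difference of the list, 1.42 ± 0.15. Its effects were 1.59 ± 0.11 in gECs and 0.17 ± 0.11 in mesangial cells, and its gEC median was 2.44 CPM in WT (1.08 to 4.08) and 7.48 CPM in ob/ob (3.46 to 18.8). Since it met the minimum in gECs only through ob/ob, where it was high, these values are a description without a test.

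Within the integrated stress response, 6 of 14 well expressed genes had opposite signs (42.9%, beside 35.9% of the well expressed genes of any kind). Slc3a2 (chr19:8706882-8723369, minus strand), the heavy chain shared by several amino acid transporters and a target of ATF4, had effects of 0.35 ± 0.05 in gECs and -0.46 ± 0.05 in mesangial cells, a difference of 0.81 ± 0.07. Its levels in gECs ran from 114 to 199 CPM (median 127) in WT and from 129 to 261 CPM (median 164) in ob/ob. In mesangial cells they ran from 137 to 215 CPM (median 165) in WT and from 71.4 to 174 CPM (median 119.5) in ob/ob. All 23 ob/ob gEC libraries and 2 of 23 ob/ob mesangial libraries were above the WT median of their age, and the genotypes did not overlap at 1 age in gECs and at 2 ages in mesangial cells. The difference was 0.60 without the 18-week libraries.

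Nupr1, a small stress-induced nuclear protein, went the other way, with effects of -0.13 ± 0.11 in gECs and 0.58 ± 0.11 in mesangial cells, a difference of -0.71 ± 0.16. In mesangial cells it ran from 29.7 to 49.9 CPM (median 40.3) in WT and from 33.7 to 90.6 CPM (median 56.6) in ob/ob, with 22 of 23 ob/ob libraries above the WT median of their age and no overlap at 2 ages. The gEC ranges were wide, 10.3 to 71.7 CPM (median 22.1) in WT and 8.29 to 45.6 CPM (median 24.3) in ob/ob. Here 16 of 23 ob/ob libraries were above the WT median although the fitted effect was below 0. Podocytes held far more Nupr1 per transcript length, a mean of 1546 TPM beside 74.1 TPM in gECs and 140.2 TPM in mesangial cells, and the sum of 8 podocyte markers in gECs had a highest value of 3314 CPM in WT and 1881 CPM in ob/ob, with medians of 1122 and 1326 CPM. The part of podocyte RNA in these values was not tested. Atf4 and Ddit3, the central transcription factors of the response, had differences of 0.08 ± 0.08 (edgeR adjusted p = 0.604) and -0.05 ± 0.11 (adjusted p = 0.845), and Atf4 fell in both cell types, by 0.17 ± 0.06 in gECs (edgeR adjusted p = 0.0302) and by 0.25 ± 0.06 in mesangial cells (edgeR adjusted p = 0.000438). The difference passed for 5 genes of the list above 0 and 2 below (50%, beside 25.1% of the well expressed genes). Without the 18-week libraries it passed for 1 above and 2 below.

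Several p53 targets had an ob/ob effect higher in gECs than in mesangial cells. The difference passed for 9 of 17 well expressed genes, all above 0 (52.9%, beside 15.1% of the well expressed genes of any kind). The list median was 0.26, and 4 genes passed without the 18-week libraries. In gECs 8 rose and 2 fell (beside 19.8% and 8.10% of the well expressed genes). In mesangial cells 0 rose and 6 fell by edgeR (beside 22.7% and 20.4%), while 1 rose at an unadjusted edgeR p under 0.05, and 1 with DESeq2. With the deposited TPM, the gEC counts were 6 and 5. Cdkn1a, the cell cycle inhibitor p21, had effects of 0.24 ± 0.12 in gECs and -0.37 ± 0.13 in mesangial cells, a difference of 0.61 ± 0.18. It was an endothelial transcript, at 130 to 629 CPM (median 380.3) in WT and 247 to 694 CPM (median 385) in ob/ob gECs, beside 9.69 to 58.0 CPM (median 20.4) and 5.61 to 31.9 CPM (median 19.1) in mesangial cells, and the genotypes overlapped at every age.

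Zmat3, an RNA-binding target of p53, had an effect of 0.51 ± 0.05 in gECs and -0.07 ± 0.05 in mesangial cells, a difference of 0.58 ± 0.07. All 23 ob/ob gEC libraries (26.3 to 55.9 CPM, median 35.6) lay above the WT median of their age (WT 21.6 to 31.3 CPM, median 25.4), with no overlap at 1 age. Mesangial levels went from a WT median of 28.9 CPM (22.7 to 34.2) to 28.2 CPM (21.2 to 32.3). Trp53 itself, the gene of p53, had opposite signs close to 0, with 0.01 ± 0.05 and -0.08 ± 0.05. Plk2 and Gadd45a, a polo-like kinase and a DNA damage response protein, had effects below 0 in both cell types but lower in mesangial cells, with -0.32 ± 0.10 and -1.24 ± 0.10 for Plk2 and -0.30 ± 0.12 and -1.07 ± 0.12 for Gadd45a. Their differences passed the test, 0.91 ± 0.14 (edgeR adjusted p = 5.42e-07) and 0.77 ± 0.17 (edgeR adjusted p = 0.000246), and in mesangial cells 0 of 23 ob/ob libraries were above the WT median of their age for either gene.

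Of 17 well expressed hypoxia genes 7 had opposite signs (41.2%, beside 35.9% of the well expressed genes). The difference passed for 4 above 0 and 3 below (41.2%, beside 25.1%), with a median of -0.02. Without the 18-week libraries it passed for 1 above and 2 below. Epas1, which encodes the hypoxia-inducible factor HIF-2alpha and is abundant in both cell types, had effects of 0.30 ± 0.04 in gECs and -0.21 ± 0.04 in mesangial cells, a difference of 0.52 ± 0.06. It ran from 2645 to 4944 CPM (median 3647) in WT gECs and from 3458 to 5544 CPM (median 4270.0) in ob/ob gECs, and from 4753 to 6566 CPM (median 5888) and 4167 to 6105 CPM (median 4887) in mesangial cells. In gECs 22 of 23 ob/ob libraries were above the WT median of their age, and in mesangial cells 0 of 23, although the ranges overlapped at every age. Hif1a, which encodes HIF-1alpha, rose in both, by 0.33 ± 0.05 in gECs (edgeR adjusted p = 4.46e-08) and by 0.37 ± 0.05 in mesangial cells (edgeR adjusted p = 5.98e-10), with a difference of -0.04 ± 0.07 (adjusted p = 0.803).

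Ndrg1 (chr15:66929318-66969640, minus strand), a hypoxia- and differentiation-induced gene, was the clearest case of the reverse order. Its effects were -0.36 ± 0.06 in gECs and 0.42 ± 0.06 in mesangial cells, a difference of -0.78 ± 0.08. Its CPM in gECs ran from 151 to 288 (median 193) in WT and from 113 to 222 (median 150.4) in ob/ob, and in mesangial cells from 133 to 209 (median 159) in WT and from 173 to 260.4 (median 223) in ob/ob. Only 1 of 23 ob/ob gEC libraries was above the WT median of its age, against all 23 in mesangial cells, where the genotypes did not overlap at 1 age. Adm, the vasodilator peptide adrenomedullin, rose by 0.94 ± 0.20 in mesangial cells (edgeR adjusted p = 0.000124), with 0.14 ± 0.21 in gECs. Its difference of -0.80 ± 0.29 passed narrowly (edgeR adjusted p = 0.042) and missed without the filter on low counts (adjusted p = 0.0571) and without any one age (adjusted p from 0.0866 to 0.167). Podocytes had a mean of 581 TPM of Adm beside 37.7 TPM in gECs and 87.3 TPM in mesangial cells, and the sum of the podocyte markers in mesangial cells went from a median of 860.4 CPM (756 to 1012) to 1017 CPM (860 to 1275), with 3 of 8 markers higher and 4 lower. Their part in the result was not tested.

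Most heat shock genes had effects below 0 in both cell types. Of 22 well expressed genes 19 had effects below 0 in both cell types, and only 3 had opposite signs (13.6%, beside 35.9% of the well expressed genes). In gECs 8 fell and 1 rose (beside 8.10% and 19.8%), and in mesangial cells 11 fell and 1 rose (beside 20.4% and 22.7%). The list medians were -0.20 and -0.18, and the difference passed for 3 genes (13.6%, against 25.1% of the well expressed genes), and for 6, 3 above 0 and 3 below, with a replicate block by mouse. Without the 6-week libraries 2 genes fell in gECs and 3 in mesangial cells. Cryab (chr9:50751325-50756636, plus strand), the small heat shock protein alphaB-crystallin that keeps unfolded proteins soluble, was the exception of largest size, with effects of -0.53 ± 0.17 in gECs and 0.76 ± 0.16 in mesangial cells, a difference of -1.29 ± 0.23. In gECs it ran from 2.82 to 23.0 CPM (median 7.39) in WT and from 2.41 to 9.06 CPM (median 5.80) in ob/ob, and in mesangial cells from 9.34 to 29.7 CPM (median 15.1) and from 13.7 to 56.8 CPM (median 26.3). In mesangial cells 22 of 23 ob/ob libraries were above the WT median of their age, in gECs 6 of 23, with overlap at every age. Podocytes held 274.5 TPM of Cryab on average, beside 12.1 TPM in gECs and 37.4 TPM in mesangial cells, and the part of podocyte RNA was not tested.

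Hspb1, the small heat shock protein HSP25 of the mouse, was abundant in gECs and had effects of -0.51 ± 0.18 there and 0.17 ± 0.18 in mesangial cells, a difference of -0.68 ± 0.25. WT gECs held 309.9 to 1422 CPM (median 807) and ob/ob gECs 195 to 956 CPM (median 574.5), with 3 of 23 ob/ob libraries above the WT median of their age. Mesangial levels overlapped broadly, 12.3 to 136 CPM (median 67.7) in WT and 15.1 to 172 CPM (median 81.4) in ob/ob. The third member, Hspa4, had effects of 0.12 and -0.14 and is named here after its values were seen. Hsf1, the regulator of the list, had a difference of 0.06 ± 0.06 (edgeR adjusted p = 0.585) and fell in mesangial cells by 0.14 ± 0.04 (edgeR adjusted p = 0.00426).

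Of 21 chaperones, folding enzymes and sensors of the endoplasmic reticulum, 6 rose in gECs (beside 19.8% of the well expressed genes) and 14 rose in mesangial cells (beside 22.7%), with 0 falling in either by edgeR. At an unadjusted p under 0.05 there were 0 falling genes too, and with the deposited TPM in limma 1 gene fell in each cell type. The list medians were 0.16 and 0.32, and the gEC count was 3 without the 6-week libraries, without the 18-week libraries and with the deposited TPM. The difference passed for 3 genes, all below 0 (14.3%, beside 25.1% of the well expressed genes in either direction). It passed for 1 above and 6 below with a replicate block by mouse, for 1 above and 4 below with all sorted libraries in 1 fit and for 5 below with DESeq2 or with TMM factors within each cell type. The 5 genes of opposite sign had small effects in gECs. Edem1, which helps to remove misfolded glycoproteins, had -0.01 ± 0.05 in gECs and 0.34 ± 0.05 in mesangial cells, a difference of -0.35 ± 0.07. Its mesangial levels went from a WT median of 52.0 CPM (39.8 to 64.3) to 64.8 CPM (44.2 to 109), with 21 of 23 ob/ob libraries above the WT median of their age, while its gEC medians were 53.0 CPM (45.1 to 62.8) and 52.8 CPM (43.7 to 59.1).

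Hspa5, the main chaperone of the endoplasmic reticulum (BiP), had -0.01 ± 0.10 in gECs and 0.24 ± 0.11 in mesangial cells, a difference of -0.25 ± 0.15. Its mesangial effect was 0.78 at 6 weeks, -0.18 at 12 weeks and 0.11 at 18 weeks. Ern1 and Xbp1, the sensor IRE1 and the transcription factor it activates, had small opposite effects, with differences of 0.20 ± 0.08 and -0.13 ± 0.12. With the deposited TPM the difference of Ern1 was 0.00. Atf6, the gene of another sensor, had a difference of -0.02 ± 0.04 (edgeR adjusted p = 0.843).

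Oxidant defence was covered by 2 lists. Of 20 NRF2 targets and regulators, 12 rose and 0 fell in mesangial cells (0 also at an unadjusted edgeR p under 0.05, and 0 with DESeq2), with a median of 0.27. In gECs 6 rose and 1 fell (median 0.10). Among the well expressed genes of any kind, 22.7% rose and 20.4% fell in mesangial cells, and 19.8% rose and 8.10% fell in gECs. The difference passed for 2 above 0 and 6 below (40%, beside 25.1% of the well expressed genes). The 6 became 10 or 11 with other scalings (10 with RLE factors or the deposited TPM, 11 with TMM factors within each cell type or DESeq2), 3 without the 12-week libraries and 2 without the 18-week libraries. In gECs 2 genes rose with the deposited TPM. G6pdx, which supplies NADPH for glutathione, had effects of 0.41 ± 0.05 in gECs and -0.04 ± 0.05 in mesangial cells, a difference of 0.45 ± 0.07, and all 23 ob/ob gEC libraries (17.1 to 33.9 CPM, median 22.9) were above the WT median of their age (WT 14.3 to 23.1 CPM, median 16.7). Fth1, the ferritin heavy chain that stores iron, had -0.01 ± 0.05 and 0.18 ± 0.05, a difference of -0.19 ± 0.08, with 22 of 23 ob/ob mesangial libraries above the WT median. Nfe2l2, the gene of NRF2, had a difference of 0.15 ± 0.07 (edgeR adjusted p = 0.149), and Keap1, the adaptor that marks NRF2 for degradation, of -0.23 ± 0.08 (edgeR adjusted p = 0.0288), which missed without the 12-week libraries (adjusted p = 0.054) and without the 18-week libraries (adjusted p = 0.208).

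Among 17 antioxidant enzymes, 5 rose in gECs (median 0.11) and 9 in mesangial cells (median 0.17), beside 19.8% and 22.7% of the well expressed genes. The difference passed for 1 above 0 and 4 below, a share of 29.4% that was near the 25.1% of the well expressed genes. The gEC count was 3 with the deposited TPM, with each cell type fitted alone and without the 18-week libraries, and the mesangial count was 6 without the 18-week libraries. Without the 12-week libraries the difference passed for 2 genes below 0 in place of 4, and the 1 gene above 0 was lost without the 6-week and without the 18-week libraries. Sod1, the cytosolic superoxide dismutase, had 0.21 ± 0.06 in gECs and -0.05 ± 0.06 in mesangial cells, a difference of 0.26 ± 0.08, with 17 and 9 of 23 ob/ob libraries above the WT median of their age. Txnip, a glucose-induced inhibitor of thioredoxin, had -0.01 ± 0.09 and 0.17 ± 0.09, a difference of -0.18 ± 0.12. Gpx3, the secreted glutathione peroxidase, had the largest difference of the same-sign genes, -1.93 ± 0.38 (edgeR adjusted p = 5.46e-05). It rose by 2.45 ± 0.28 in mesangial cells (edgeR adjusted p = 6.46e-12), from a WT median of 5.07 CPM (2.27 to 29.7) to 33.5 CPM (11.4 to 111), with all 23 ob/ob libraries above the WT median of their age and no overlap at 2 ages. In gECs it had 0.52 ± 0.27 (adjusted p = 0.166), and the sign there rested on 1 ob/ob library at 18 weeks, which held 120.1 CPM beside 2.57 to 10.7 CPM in the other 6 of its group. Without that library the gEC effect was -0.08 ± 0.22, so that Gpx3 would have counted among the genes of opposite sign, and the difference was -2.54 ± 0.31 (edgeR adjusted p = 2.8e-10). The sum of the 5 smooth muscle and renin cell markers in mesangial cells went from a median of 28.5 CPM (10.7 to 75.2) to 131 CPM (39.5 to 380), with 3 of the 4 tested markers called higher. The sum of the 8 proximal tubule markers had medians of 53.7 CPM (40.5 to 67.0) and 40.8 CPM (26.3 to 136) in WT and ob/ob gECs and of 2.62 CPM (0.874 to 29.7) and 3.93 CPM (1.52 to 61.4) in mesangial cells. The part of these markers in the result was not tested.

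The change with age was a comparison that the choice of genes did not use. The difference at 18 weeks minus that at 6 weeks passed the test for 9 of the 19570 genes (0.0460%) and for 0 of the 168 stress genes by edgeR. At an unadjusted p under 0.05, 13 of the 168 and 7 of the 55 passed, beside 895 of all genes, and DESeq2 called 1 of the 168. Slc3a2 came closest, with a change of 0.73 ± 0.18 (edgeR adjusted p = 0.123), and its mesangial effect was -0.12 at 6 weeks, -0.53 at 12 weeks and -0.73 at 18 weeks.

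As a description, the difference of the 36 genes had a median of 0.27 at 6 weeks, 0.50 at 12 weeks and 0.69 at 18 weeks, with mesangial medians of -0.12, -0.22 and -0.53. Their difference was above 0 for 34, 36 and 35 of the 36 genes at the 3 ages, but the 2 effects had opposite signs at every age for only 14. For the 19 genes the median differences were -0.19, -0.25 and -0.19, and 4 had opposite signs at every age. Immediate early genes had list medians in mesangial cells of -0.19, -0.20 and -0.73 and in gECs of 0.02, 0.34 and -0.07. The ER list was highest at 6 weeks, with medians of 0.27 in gECs and 0.53 in mesangial cells, beside 0.01 and 0.05 at 12 weeks and 0.13 and 0.26 at 18 weeks. Vcam1 in gECs had effects of 0.78, 2.68 and 1.46 at 6, 12 and 18 weeks, and Il6 of 0.90, 2.13 and 1.47.

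**Figure D4:**
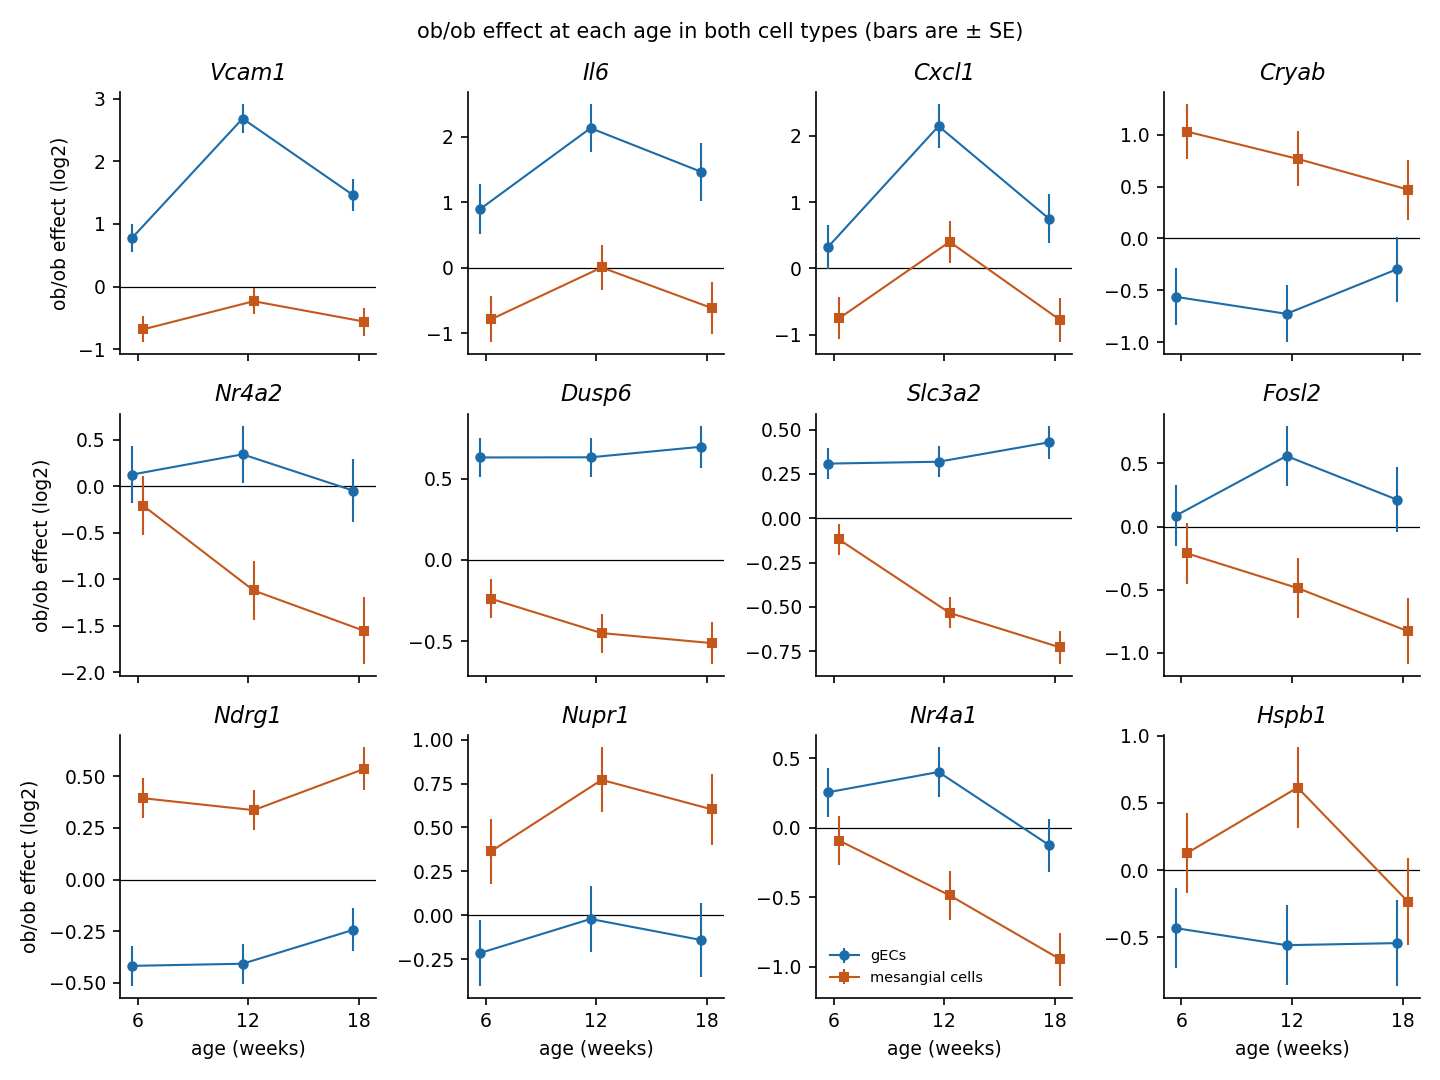
ob/ob effect (y axis, log2, bars are ± SE) at 6, 12 and 18 weeks (x axis) in gECs (circles) and mesangial cells (squares) for the 12 genes of opposite sign with the largest averaged difference. Dusp6, Slc3a2, Ndrg1 and Cryab have opposite signs at all 3 ages, whereas Nr4a1 in gECs goes from 0.40 at 12 weeks to -0.13 at 18 weeks.

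Between females and males the difference itself was tested and passed for 2 of 19570 genes (0.0102%) and for 0 of the 168 stress genes by edgeR, with 5 of the 168 and 0 of the 55 at an unadjusted p under 0.05. With RLE factors, 1 gene was called in all. The signs that chose the 55 genes came from these same females and males, so the counts by sex are a description. The difference had the same direction in females for 35 and in males for 36 of the 36 genes, and for all 19 genes in both sexes. Opposite signs were seen in females for 31 of the 36 and 13 of the 19 genes, and in males for 30 and 9.

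Podocytes, the 3rd sorted cell type, were not used by the rule. In their 46 libraries, 54 of the 55 genes were tested, of which 14 rose and 14 fell in ob/ob, while 15.2% of the 17143 tested genes rose and 14.3% fell. Over all 164 tested stress genes, 42 rose and 40 fell. The 17143 genes were not held to the minimum of 5 TPM that the stress genes met. Their shares are therefore not on a like base. The members called with the largest effects were Hspb1, which fell by 1.55 ± 0.19 (edgeR adjusted p = 7.77e-09), Epas1, which fell by 1.22 ± 0.12 (edgeR adjusted p = 4.89e-12), Cxcl1, which rose by 1.22 ± 0.15 (edgeR adjusted p = 4.65e-09), Nr4a2, which rose by 0.94 ± 0.17 (edgeR adjusted p = 1.72e-05), and Fosl2, which rose by 0.58 ± 0.13 (edgeR adjusted p = 0.00049). For Cxcl1, Nr4a2, Fosl2 and Hspb1 the podocyte effect thus had the sign of the gEC effect, and for Epas1 that of the mesangial effect. The immediate early list as a whole did not follow Nr4a2 and Fosl2. Of its 14 genes of opposite sign, 2 rose and 5 fell in podocytes. Of its 22 well expressed genes tested there, 3 rose and 9 fell, with a median effect of -0.26. Dusp6 and Slc3a2 fell in podocytes, by 0.41 ± 0.10 (edgeR adjusted p = 0.000753) and 0.35 ± 0.05 (edgeR adjusted p = 7.28e-07), the sign seen in mesangial cells. Ndrg1 rose by 0.16 ± 0.04 (edgeR adjusted p = 0.00355) and Nupr1 by 0.40 ± 0.05 (edgeR adjusted p = 3.14e-09), again with the mesangial sign, and Nr4a1 had 0.15 ± 0.15 (adjusted p = 0.522).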

How the data were processed

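RNA of the sorted cells was sequenced in bulk as single reads from SMART-Seq Stranded libraries. Per the processing notes of the submitters, the authors used FastQC 0.11.5, Bowtie2 2.3.3.1 and RSEM 1.3.0 with the genome mm10, and the annotation release is not given in the sources used here. The deposited tables hold RSEM expected counts, which the authors left unnormalized, and TPM, which the authors' RSEM run scaled by transcript length and to a common sum per library. Expected counts share ambiguous reads among near-identical genes.

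After rounding of the expected counts to integers, low genes were removed with filterByExpr, libraries were scaled with TMM factors and a quasi-likelihood model was fitted in edgeR 4.0.16 (R 4.3.3). The model held the 12 groups of cell type, genotype and age with sex within cell type, over 92 libraries. The effect was averaged over ages within each cell type, and the gEC minus mesangial difference was tested. Benjamini-Hochberg adjustment ran over all tested genes, with a threshold of 0.05. Podocytes were fitted alone in the same way. CPM are TMM-scaled. TPM entered as the minimum of 5 and in limma 3.58.1 on log2(TPM + 1). Alternatives were DESeq2 1.42.0, other scalings and filters, and fits without libraries or ages. The code was tested on simulated data. The 6 libraries of kidney perfusion were not used here. The labels do not say which libraries came from separate mice, so p-values measure the spread between libraries. Depth was 14.8 to 38.1 M counts per sorted library.

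The genes, lists and rule were chosen with earlier results of these data known. The text names the 12 genes of opposite sign with the largest difference, the 2 largest per list, the 6 largest of the same sign that passed the test, 12 regulators, and up to 5 members called in podocytes. Gene positions are from GENCODE (GRCm38) and promoters from RefSeq.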

Additional observations from a re-analysis of the deposited data

Results flagged for a closer look

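In 3 of 72 groups of libraries checked for the 6 genes plotted by library, 1 library stood apart from the others of its group by Dixon's criterion, which chance exceeds in about 1 of 20 groups. Dusp6 stood at 202.4 CPM in 1 ob/ob gEC library at 6 weeks, beside 120.2 to 158.5 CPM in the others. Slc3a2 stood at 199.1 CPM in 1 WT gEC library at 12 weeks, beside 123.9 to 147.4 CPM. Nr4a1 stood at 1078 CPM in 1 ob/ob mesangial library at 6 weeks, beside 1300 to 1493 CPM.

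For 5 stress genes with effects of the same sign, the gEC and mesangial effects differed by the test of the difference itself, for Gpx3 by -1.93, for Plk2 by 0.91, for Adm by -0.80, for Tnfaip3 by 0.80 and for Gadd45a by 0.77 on the log2 scale. The difference of Gpx3 was -2.54 without 1 ob/ob gEC library at 18 weeks that held 120.1 CPM, and its gEC effect then turned from 0.52 to -0.08. The mesangial effect of Tnfaip3 was close to 0 and changed sign in 11 of the fits without 1 library. Myc reached the minimum of 5 TPM in gECs only through ob/ob, so its difference of 1.42 is a description.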

How the results depend on the processing

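The difference passed for 3484 genes, but for 2151 without the 18-week libraries, where 33 of the 168 stress genes passed in place of 64. Genes called in gECs numbered 4109, and 2430 without the 6-week and 2405 without the 18-week libraries. The change with age was called for 9 genes, for 19 with all sorted libraries in 1 fit, for 15 without the 4 libraries that stood apart and for 41 with DESeq2. The sex difference was called for 2 genes and for 1 with RLE factors. Leaving out an age removes libraries, and the cause of the other changes was not tested. The fits without an age, without single libraries or without the 4 libraries were chosen after seeing the data.

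Over the other alternatives the difference passed for 50 to 83 of the 168 stress genes, and 52 to 62 genes had opposite signs. A minimum of 1 TPM gave 62 members and of 10 TPM gave 53. The sign of the difference held in all 14 settings for 37 of the 38 named genes, the exception being Hsf1 (-0.02 without the 18-week libraries). The labels do not say that gEC and mesangial libraries with the same number came from the same mouse. Of 46 such pairs, 36 had correlations of their deviations over 0.1 (range -0.05 to 0.55), and 34 correlated best with their own number. A replicate block for the implied mouse gave 3995 genes, 83 stress genes and 13 genes for the change with age, and a block by sex and number gave 3417 genes and 65 stress genes.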
